A study of Mus musculus with 7 samples.

Results

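The collagens of basement membranes and of their anchors were examined in aged mouse dorsal skin, as the 10 genes Col4a1, Col4a2, Col4a3, Col4a4, Col4a5, Col4a6, Col7a1, Col17a1, Col15a1 and Col18a1. They were chosen by name from the 55450 genes of the count table, and all 10 were among the 17959 genes with enough counts to be tested. The skin came from male C57BL/6 mice aged 24 months. In 4 mice (480, 481, 482 and 483) the dorsal skin received the vehicle DMSO alone, and in 3 mice (476, 477 and 478) it received 5 μM ABT-263 (Navitoclax), an inhibitor of anti-apoptotic Bcl-2 family proteins that is used to kill senescent cells. Both groups shared hair removal by clippers and depilatory lotion, cleansing with ethanol, and a semi-occlusive dressing over 5 days of treatment. Whole skin was homogenized, so every value is an average over all its cells, and each mouse gave 1 library.

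Basement membranes are thin sheets of matrix under epithelia and around vessels, muscle fibres, nerves and fat cells. Type IV collagen forms their network. Its chains join in fixed trimers, of which the one made of Col4a1 and Col4a2 products is found in nearly all basement membranes, while that of the Col4a3, Col4a4 and Col4a5 products is best known from kidney and that of the Col4a5 and Col4a6 products occurs under the epidermis and around smooth muscle. In skin, collagen XVII, a transmembrane protein of basal keratinocytes, is part of the hemidesmosome, and collagen VII, made by keratinocytes and fibroblasts, forms the anchoring fibrils that tie the epidermal basement membrane to the dermis. Collagens XV and XVIII, the multiplexins, are proteoglycans of vascular and other basement membranes, and the C-terminal part of collagen XVIII can be released as endostatin, an inhibitor of vessel growth.

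The 6 type IV genes lie in pairs that start back to back on opposite strands. By GENCODE M21 on GRCm38 (mm10), Col4a1 (ENSMUSG00000031502) lies on chromosome 8 from 11198423 to 11312826 on the minus strand and Col4a2 (ENSMUSG00000031503) from 11312805 to 11449287 on the plus strand, so that their first exons share 22 bases. Between the starts of Col4a4 (ENSMUSG00000067158, chromosome 1 from 82448423 to 82586849, minus strand) and Col4a3 (ENSMUSG00000079465, 82586921 to 82722059, plus strand) lie 71 bases. Those of Col4a6 (ENSMUSG00000031273, chromosome X from 141165403 to 141474076, minus strand) and Col4a5 (ENSMUSG00000031274, 141475385 to 141689234, plus strand) are 1308 bases apart. Both short stretches are shown because the genes on either side are compared as pairs below, and the stretches before Col17a1, Col7a1 and Col18a1 because the values of these genes went different ways. The bases were taken from RefSeq's promoter windows of GRCm38.p6, each from 250 bases before to 50 after a start, and only parts outside annotated exons are printed, apart from the 22 shared bases. Capitals mark matches on either strand to 4 motifs. The first is the GC box, searched as GGGCGG. The second is the box named for its own letters CCAAT. The third is the TATA box, searched as TATAAA. The last is the AP-1 site, searched as TGANTCA with N for any base.
Col4a1 and Col4a2, shared first-exon bases, chr8:11312805-11312826, plus strand: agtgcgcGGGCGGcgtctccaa
Col4a4 and Col4a3, between the starts, chr1:82586850-82586920, plus strand: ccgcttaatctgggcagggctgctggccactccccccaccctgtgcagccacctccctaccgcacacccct
Col17a1, before the start, chr19:47692095-47692292, minus strand: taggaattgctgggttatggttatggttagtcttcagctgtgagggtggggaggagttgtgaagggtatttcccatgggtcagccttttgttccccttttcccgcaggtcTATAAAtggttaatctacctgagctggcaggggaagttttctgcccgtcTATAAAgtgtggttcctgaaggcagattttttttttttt
Col7a1, before the start, chr9:108953336-108953585, plus strand: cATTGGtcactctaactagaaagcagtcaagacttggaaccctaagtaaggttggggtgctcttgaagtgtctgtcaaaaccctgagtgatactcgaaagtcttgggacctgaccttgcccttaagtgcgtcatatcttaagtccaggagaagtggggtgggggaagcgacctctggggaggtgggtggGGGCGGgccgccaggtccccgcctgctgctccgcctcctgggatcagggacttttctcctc
Col18a1, before the first of its starts, chr10:77166549-77166780, minus strand: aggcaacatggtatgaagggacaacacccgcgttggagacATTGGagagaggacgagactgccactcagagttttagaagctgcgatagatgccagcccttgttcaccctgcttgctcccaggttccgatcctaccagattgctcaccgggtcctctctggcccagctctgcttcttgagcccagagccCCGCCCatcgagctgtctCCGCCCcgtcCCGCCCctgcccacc

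A window was found for 9 of the 10 genes, with 2 for Col18a1. The windows of Col4a1 and Col4a2, which overlap each other, were the richest of the 10 in G and C, at 74% and 73.7%, against a median of 52.7% over all 32851 windows. That of Col17a1 was the poorest of the 10 windows, at 46.3%, and it alone among them held TATAAA, in 2 places, a motif in 13.6% of all windows. A GC box stood in the windows of Col4a1, Col4a2, Col4a5, Col4a6, Col7a1 and the first of Col18a1, and in 35.7% of all. The 22 bases shared by Col4a1 and Col4a2 hold 1 of these GC boxes. The AP-1 letters, present in 7.81% of all windows, were in none of the 10. These are matches of letters and say nothing on which factors bind.

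In the libraries, between 20344364 and 43562330 read pairs were counted per mouse, and each ABT-263 library was larger than each DMSO library. Levels are given as CPM, read counts scaled to a common library size with TMM factors, and as FPKM, that is CPM per kilobase of annotated exon, where genes are compared with each other. Treatments were compared with edgeR's quasi-likelihood test over the 17959 genes, two-sided, with Benjamini-Hochberg adjustment and a threshold of 0.05. Skin identity was clear from the keratins, with Krt5 between 3356 and 9150 CPM, and 8 skeletal muscle markers together made up 25272 to 60294 CPM, so the samples held muscle as well.

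Of the 10 genes, 4 were higher after ABT-263 (Col4a1, Col4a2, Col18a1 and Col15a1), against 12.4% of all genes tested. None was lower, against 11.7% of all. In either direction 24.2% of all genes passed. The same 4 genes were those with every ABT-263 mouse above every DMSO mouse, which 18.7% of all genes tested showed (37.1% in either direction). In bulk tissue, more cells of a type and more RNA per cell cannot be told apart. The rise was 3.26-fold for Col4a1, 3.16-fold for Col4a2, 2.61-fold for Col18a1 and 1.71-fold for Col15a1. Col7a1 was lower only at an unadjusted p under 0.05, and so was not called. The share of all genes passing that looser threshold is not given, so nothing is drawn from it. No member was called lower by DESeq2's Wald test either. The median log2 fold change of the 10 genes was 0.57 and that of all genes tested 0.002. The number of genes higher stayed at 4 in the 6 alternatives that kept all mice and was 3 without mouse 481, 482, 483 or 478.

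**Figure D1:**
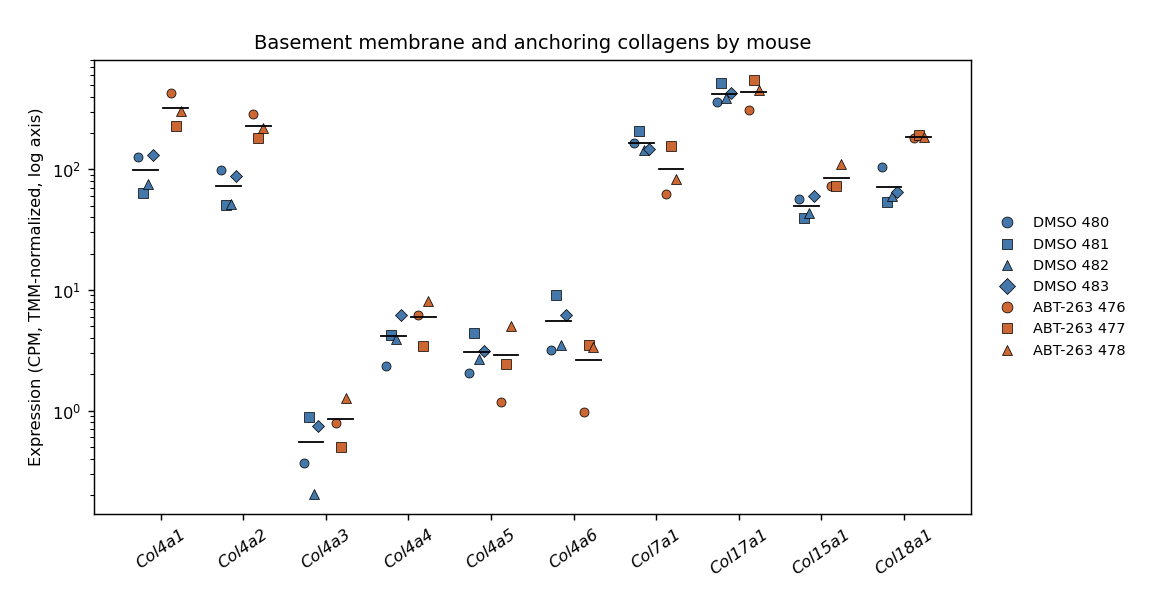
Expression of the 10 collagen genes in each mouse, in CPM on a log axis, with DMSO mice in blue, ABT-263 mice in orange, a symbol for each mouse and a bar at each group's mean. The points of the groups separate for Col4a1, Col4a2, Col15a1 and Col18a1 and overlap for the other 6 genes.

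Per length of exon, Col17a1 was the highest of the 10 in DMSO-treated skin, at a mean of 70.4 FPKM. It was followed by Col7a1 (16.2 FPKM), Col4a1 (13.2), Col4a2 (10.9), Col18a1 (10.1) and Col15a1 (7.85). From Col7a1 down to Col15a1, each gene's range over the 4 mice overlapped that of the next, so their order is not separated by the spread. The 4 remaining type IV genes lay far lower, with Col4a6 at 0.687, Col4a5 at 0.455, Col4a4 at 0.394 and Col4a3 at 0.0551 FPKM. After ABT-263 the order was Col17a1 (72.3 FPKM), Col4a1 (43.1), Col4a2 (34.4), Col18a1 (26.4), Col15a1 (13.4) and Col7a1 (9.77). By these means Col7a1 stood second after DMSO and sixth after ABT-263. In treated mice its range of 6.03 to 15.2 FPKM overlapped that of Col15a1, 11.3 to 17.5 FPKM. The order of Col7a1 and Col15a1 is thus not separated by the spread there either. Both lay below Col18a1 (25.8 to 27.2 FPKM), Col4a2 (27.3 to 43.0 FPKM) and Col4a1 (30.8 to 57.8 FPKM) in every treated mouse. In mouse 476, Col4a1 exceeded Col17a1, with a ratio of their FPKM of 1.12, while in the 4 DMSO mice that ratio lay between 0.0986 and 0.283.

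Col4a1, the main chain of the general basement membrane network, was at 125.7, 63.7, 74.8 and 131 CPM in DMSO mice 480 to 483, and at 432, 229.8 and 304 CPM in ABT-263 mice 476, 477 and 478. The lowest treated mouse, 477, lay above the highest control, 483. edgeR put the rise at 1.70 ± 0.32 (SE) on the log2 scale, with an adjusted p of 0.0118. Col4a2, its partner, was at 98.3, 50.6, 51.5 and 87.8 CPM after DMSO and at 285, 180.4 and 218 CPM after ABT-263. Mouse 476 was highest and mouse 477 lowest of the treated mice for both genes. For Col4a2 the rise was 1.66 ± 0.28 (SE) on the log2 scale, with an adjusted p of 0.00932. Both calls held with each mouse left out, where the log2 fold change lay between 1.44 and 1.92 for Col4a1 and between 1.47 and 1.84 for Col4a2. Their lowest values came without mouse 476.

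The ratio of the pair changed little. The log2 ratio of Col4a2 to Col4a1 counts was -0.45 ± 0.13 (SD, n = 4) after DMSO and -0.48 ± 0.13 (SD, n = 3) after ABT-263, a difference of -0.03 (exact permutation test, two-sided, p = 0.80, adjusted p = 0.83 over 7 ratios). Omitting single mice gave differences from -0.09 to 0.04. Per length of exon, Col4a1 was at 1.12 to 1.34 times the level of Col4a2 over all 7 mice.

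The minor type IV genes were sparse. Col4a3 had 4 to 59 counts per library and Col4a4 had 57 to 378. Col4a4 was at 2.33, 4.26, 3.95 and 6.16 CPM in DMSO mice 480 to 483 and at 6.26, 3.43 and 8.12 CPM in ABT-263 mice 476 to 478, groups that overlap. Its log2 fold change was 0.51 ± 0.38 (SE) with an adjusted p of 0.358, and that of Col4a3 was 0.62 ± 0.56 (SE) with an adjusted p of 0.438. The 95% interval for Col4a3 ran from -0.66 to 1.90, which includes both no change and the value of Col4a1, so a change was not detectable at this depth. In Col4a3, 563 exon bases (5.65%) are also covered by C430014B12Rik on the opposite strand. The log2 ratio of Col4a4 to Col4a3 was 2.99 ± 0.81 (SD, n = 4) after DMSO and 2.79 ± 0.15 (SD, n = 3) after ABT-263 (exact permutation test, two-sided, p = 0.83, adjusted p = 0.83).

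Col4a5 and Col4a6, the X-linked pair, did not pass in either direction. Col4a5 was at 2.05, 4.38, 2.67 and 3.12 CPM after DMSO and at 1.18, 2.42 and 5.00 CPM after ABT-263, with the treated mice at both extremes. Its log2 fold change was -0.08 (95% interval -1.18 to 1.02, adjusted p = 0.918 from edgeR) and changed sign without mouse 481, 476 or 477. Col4a6 was at 3.15, 9.10, 3.49 and 6.16 CPM after DMSO and at 0.965, 3.53 and 3.39 CPM after ABT-263, and its log2 fold change of -1.05 ± 0.53 (SE) had an adjusted p of 0.18. The highest Col4a6 value was that of DMSO mouse 481, whose hair follicle markers summed to 2584 CPM against 91.9 to 107.5 CPM in the other DMSO mice. The log2 fold change of Col4a6 was -0.69 without mouse 481 and -0.65 without ABT-263 mouse 476. The hair follicle markers of mouse 476 summed to 104.1 CPM, of which Krt75 alone gave 100.3 CPM. In DMSO mice 480, 482 and 483, Krt75 was at 57.9 to 75.6 CPM. Krt28 and Msx2 were at 0.715 and 1.11 CPM in mouse 476, against 6.08 to 8.80 and 5.70 to 6.33 CPM in those controls. The other treated mice, 477 and 478, had follicle sums of 65.3 CPM, the lowest of all mice, and 515 CPM. Their Col4a6 levels were nonetheless alike, at 3.53 and 3.39 CPM. The part of hair follicles in the level of Col4a6 was not tested. The log2 ratio of Col4a6 to Col4a5 went from 0.76 ± 0.31 (SD, n = 4) to -0.10 ± 0.57 (SD, n = 3), a difference that did not pass (exact permutation test, two-sided, p = 0.0857, adjusted p = 0.20).

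The makeup of type IV transcripts per length is given as a description, with no test. Col4a1 and Col4a2 made up 97.1%, 87.6%, 93.5% and 94.2% of summed type IV FPKM in DMSO mice 480 to 483 and 99.1%, 98.0% and 97.3% in ABT-263 mice 476 to 478. All treated mice were above all controls in this share, although mouse 478 lay close to mouse 480. The share of Col4a5 and Col4a6 ran from 2.14% to 9.72% after DMSO and from 0.291% to 1.55% after ABT-263. The summed type IV level itself was 18.4 to 32.7 FPKM after DMSO and 59.2 to 101.8 FPKM after ABT-263.

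**Figure D2:**
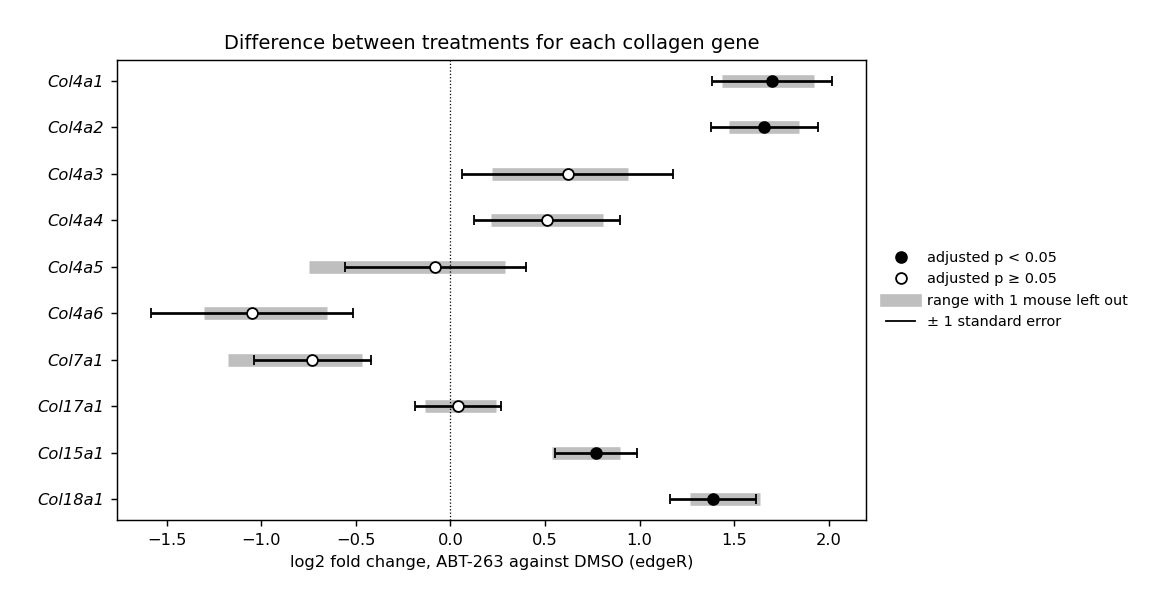
Log2 fold change of each collagen gene between ABT-263- and DMSO-treated skin from edgeR, with the standard error as a line and the range over fits with 1 mouse left out as a grey bar. Filled points (Col4a1, Col4a2, Col15a1 and Col18a1) passed an adjusted p of 0.05 and open points did not.

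Col17a1 (ENSMUSG00000025064, chromosome 19 from 47646344 to 47692094), the hemidesmosome collagen, had means of 423 CPM after DMSO (SD 70.4) and 434.6 CPM after ABT-263 (SD 118). It was at 358, 520, 389 and 425 CPM in DMSO mice 480 to 483 and at 310.1, 544 and 449.9 CPM in ABT-263 mice 476 to 478, so that the treated mice held both the lowest and the highest value. Its log2 fold change was 0.04 (95% interval -0.48 to 0.56, adjusted p = 0.915 from edgeR). Without mouse 480, 482 or 477 the sign turned, with values from -0.13 to -0.00236. The interval leaves room for a change of either sign, though not for a rise as large as that of Col4a1. Against Itgb4, the integrin chain of the hemidesmosome, which was at 115 to 135 CPM in controls and 119 to 186 CPM in treated mice, the log2 ratio of Col17a1 differed by -0.19 (exact permutation test, two-sided, p = 0.514, adjusted p = 0.72). With mouse 476 left out that difference was 0.03.

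Col7a1 (ENSMUSG00000025650, chromosome 9 from 108953586 to 108984875), the anchoring fibril collagen, was at 165.1, 206, 145 and 148 CPM after DMSO and at 62.0, 157 and 82.8 CPM after ABT-263. Mice 476 and 478 lay below all controls and mouse 477 among them. The log2 fold change was -0.73 (95% interval -1.44 to -0.02) with an adjusted p of 0.119 by edgeR, and so was not called. Without mouse 477 it was -1.18 and passed (adjusted p = 0.0143). It was smaller without mouse 476 (-0.47, adjusted p = 0.285) or 478 (-0.60, adjusted p = 0.299) and with trends on length and GC content removed (-0.51, adjusted p = 0.19). Measured against Col17a1 in the same library, Col7a1 was lower in every ABT-263 mouse than in any DMSO mouse, with log2 ratios of -2.32, -1.79 and -2.44 in mice 476, 477 and 478 against -1.52 to -1.12 in the controls. That difference of -0.84 had the smallest p these mice allow, 0.0286 (exact permutation test, two-sided), and an adjusted p of 0.10 over the 7 ratios, so it did not pass.

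The multiplexins rose. Col18a1 (ENSMUSG00000001435, chromosome 10 from 77052178 to 77166548) was at 105, 53.7, 60.0 and 65.2 CPM in DMSO mice 480 to 483 and at 181, 190.9 and 185 CPM in ABT-263 mice 476 to 478. The treated mice lay close together, all above the controls, and mouse 480 was the highest control. The rise on the log2 scale was 1.39 ± 0.23 (SE), with an adjusted p of 0.00845, and stayed between 1.27 and 1.64 with each mouse left out. RefSeq gives it 2 start windows, which a count per gene does not tell apart.

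Col15a1 (ENSMUSG00000028339, chromosome 4 from 47208161 to 47313167) was at 56.7, 39.2, 43.2 and 60.4 CPM after DMSO and at 72.0, 72.4 and 111 CPM after ABT-263. Mouse 478 stood above the other treated mice, and the lowest treated mouse was above the highest control. Its rise of 0.77 ± 0.22 (SE) on the log2 scale, with an adjusted p of 0.0363, was the smallest of the 4 that passed. The call was lost without DMSO mouse 481 (adjusted p = 0.0788), 482 (0.0979) or 483 (0.0528), or without ABT-263 mouse 478 (log2 fold change 0.54, adjusted p = 0.12).

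Col17a1, a gene of the epidermis, was then set against Col4a1, which vessels and most other tissues make, within each library. The log2 ratio of Col17a1 to Col4a1 was 1.51, 3.03, 2.38 and 1.70 in DMSO mice 480 to 483 and -0.48, 1.24 and 0.57 in ABT-263 mice 476 to 478, so the groups did not overlap. The mean difference was -1.71, and its p was the smallest these mice allow (exact permutation test, two-sided, p = 0.0286), with an adjusted p of 0.10 over the 7 ratios. When single mice were omitted, the difference ranged from -2.11 to -1.25. On the authors' variance-stabilized values, the Col4a4 to Col4a3 ratio turned sign, to 0.08, against -0.20 on counts.

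**Figure D3:**
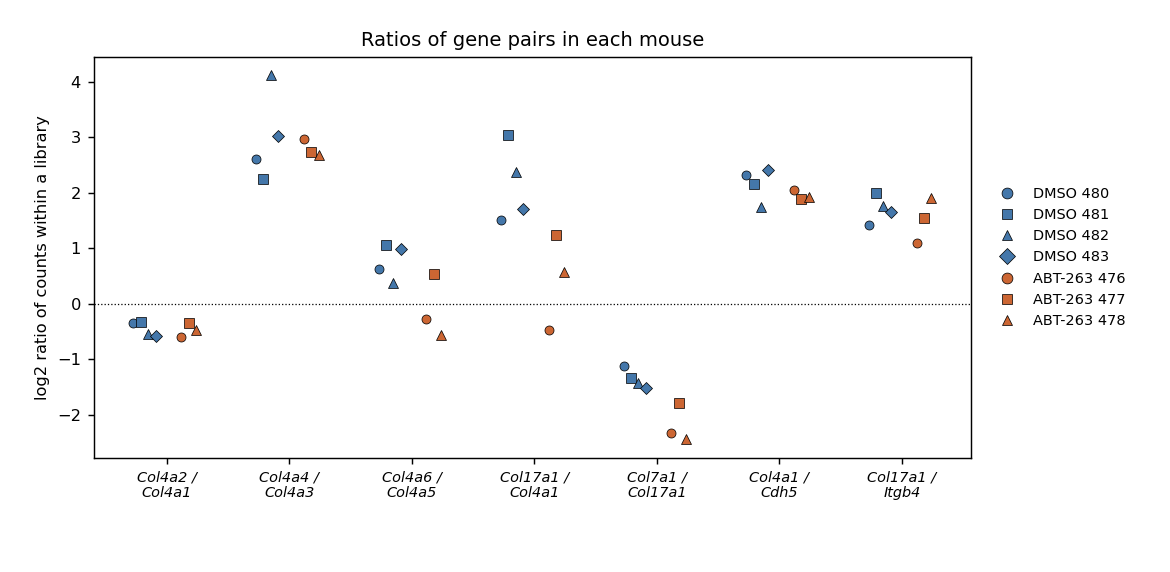
Log2 ratio of the counts of 7 gene pairs in each library, DMSO mice in blue and ABT-263 mice in orange. The groups separate for Col17a1 to Col4a1 and for Col7a1 to Col17a1, both lower after ABT-263, and overlap for the other 5 pairs.

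Markers of cells that make these collagens differed between lists. Over all genes tested, 12.4% were higher and 11.7% lower. Of 10 markers of blood endothelium, all tested, 7 were higher after ABT-263 and none lower (Vwf, Tek, Pecam1, Cdh5, Tie1, Emcn and Kdr), and the list summed to 284 to 609 CPM in controls against 774.6 to 952 CPM in treated mice. Cdh5, the cadherin of endothelial junctions, was at 14.3 to 25.3 CPM in controls and at 103.9, 62.0 and 79.5 CPM in mice 476, 477 and 478, 1.92 higher on the log2 scale (edgeR adjusted p = 0.00622). The log2 ratio of Col4a1 to Cdh5 was 2.15 ± 0.29 (SD, n = 4) after DMSO and 1.96 ± 0.09 (SD, n = 3) after ABT-263, a difference of -0.19 (exact permutation test, two-sided, p = 0.314, adjusted p = 0.55) that ranged from -0.33 to -0.11 when single mice were omitted. A change of Col4a1 relative to Cdh5 was thus not detectable. Cdh5 had the largest difference of the 10 markers, however, and the others ran from 0.30 (Cldn5) to 1.41 (Tek) on the log2 scale, against 1.70 for Col4a1. Egfl7 (0.51), Esam (0.62) and Cldn5 were not called. With the sum of all 10 markers in place of Cdh5, a comparison added after seeing the data, the log2 ratio of Col4a1 was -2.28, -2.16, -2.46 and -1.71 in DMSO mice 480 to 483 and -1.14, -1.75 and -1.39 in ABT-263 mice 476 to 478. That difference had the other sign, at 0.72, and did not pass either (exact permutation test, two-sided, p = 0.0857, adjusted p = 0.171 over 8 ratios). Only mouse 477 lay among the controls. Cdh5, Kdr and Tek passed with each mouse left out, and the number of markers called was 4 without mouse 483 or 476 and 3 without mouse 482 or 478. The part of endothelium in the rise of Col4a1, Col4a2, Col15a1 and Col18a1 was not tested.

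The 8 markers of basal keratinocytes summed to 18289 to 31243 CPM after DMSO and to 13912 to 35810 CPM after ABT-263, overlapping widely. Among them Itga6 was higher and Krt15, a keratin of basal and follicle stem cells, lower (log2 fold change -1.45, adjusted p = 0.0312 from edgeR). Each passed in 2 of the 7 fits with a mouse left out, and no marker of this list was called without mouse 481, 482, 483 or 478. Suprabasal markers had no call among 8, with sums of 12344 to 41675 CPM and 7212 to 27479 CPM. Of 8 fibroblast markers, 3 were higher (Pdgfra, Col1a2 and Lum) and the list summed to 4046 to 5714 CPM in controls and 6426 to 9096 CPM in treated mice. Pdgfra and Lum passed with each mouse left out, and Col1a2 in 2 of the 7 fits. Of 7 macrophage markers, 5 were higher, with sums of 296 to 877 CPM and 953 to 2410 CPM. Cd163 alone passed with each mouse left out, and the number called was 1 without mouse 483, 2 without 476 or 478 and 3 without 480, 481 or 482. Of 9 pericyte and smooth muscle markers, 1 was higher (Mcam), with sums of 3919 to 7202 CPM and 3820 to 6792 CPM. Most of these sums was Des, at 3441 to 6632 CPM in controls and 3251 to 6164 CPM in treated mice. The sums therefore follow that gene and say little on the other markers of this list. Of 8 skeletal muscle markers 2 were lower (Ttn and Tnnt3), all 8 had negative log2 fold changes, and the list summed to 29283 to 60294 CPM in controls and 25272 to 34224 CPM in treated mice. None of the 8 was called without mouse 481, 482, 483, 476, 477 or 478, and 4 were without mouse 480. The 6 Schwann cell markers summed to 134 to 231 CPM in controls and 139 to 156 CPM in treated mice. Adipocyte markers had no call among 7, with sums of 1011 to 2435 CPM and 940 to 2488 CPM. Hair follicle markers had none among 8, with 65.3 to 515 CPM in treated mice. No matched marker was at 0 in all mice, and Krt25 was at 0 in 1 mouse and Krt31 in 2. The part of these cells in the collagen values was not tested.

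**Figure D4:**
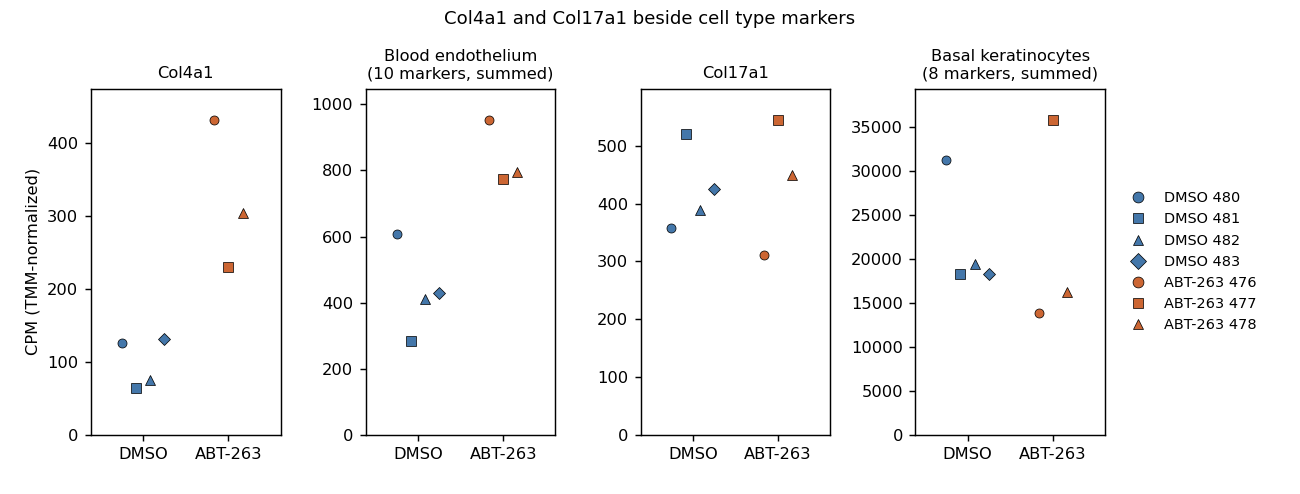
Col4a1 and Col17a1 in each mouse beside the summed expression of 10 blood endothelial and 8 basal keratinocyte markers, in CPM on axes from 0. Treated mice lie above controls for Col4a1 and the endothelial sum, and hold both the lowest and the highest value for Col17a1 and the keratinocyte sum.

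Genes that work with these collagens were taken from 5 lists of known partners. Over all genes tested, 12.4% were higher, 11.7% lower and 24.2% called in either direction. Calls over all genes also fell without mouse 481, 482, 483, 476 or 478, with the counts given in a later section. Of 14 partners of the type IV network, 5 were higher and none lower. They were Nid1 and Nid2, the nidogens that link laminin to type IV collagen, Pxdn, the peroxidase that forms sulfilimine cross-links between type IV chains, Sparc, a matrix protein that binds collagen IV, and Tinagl1. Nid2 was at 5.48 to 8.62 CPM in controls and 50.4, 20.5 and 26.4 CPM in mice 476, 477 and 478, a rise of 2.23 ± 0.32 (SE) on the log2 scale with an adjusted p of 0.00713. The rise was 1.22 for Nid1 and 1.61 for Pxdn, and these 3 genes passed with each mouse left out. Sparc (0.87, adjusted p = 0.0255) passed in 2 and Tinagl1 (1.29, adjusted p = 0.0322) in 3 of the 7 fits with a mouse left out. Hspg2, which encodes perlecan, had means of 283 CPM in controls (SD 57.3) and 282 CPM in treated mice (SD 27.7). Without mouse 482, 483, 476 or 478, 3 of the 14 were called. Fras1, Frem1 and Frem2, whose products form the Fraser complex of the epidermal basement membrane, stood at -1.69, -0.74 and -0.84 on the log2 scale and were not called (edgeR adjusted p = 0.112, 0.142 and 0.242). They are named after their values were seen.

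Of the 11 laminin chains, 6 were higher and 1 lower. Lama3, the alpha chain of the laminin that meets the hemidesmosome, was at 5.34 to 8.64 CPM in controls and 61.4, 27.3 and 29.9 CPM in mice 476, 477 and 478, a rise of 2.61 ± 0.32 (SE) on the log2 scale with an adjusted p of 0.00619. Lamb3, another chain of that laminin, stood at 0.26 on the same scale (adjusted p = 0.361). The vascular chain Lama4 rose 2.84-fold (adjusted p = 0.00924), Lamb1 by 0.94 and Lamc1 by 0.72 on the log2 scale, and Lamc3 fell by 0.95 on the log2 scale (adjusted p = 0.0281 from edgeR). With each mouse left out, Lama3 and Lama4 passed throughout, Lamb1 in 6, Lamc1 in 5 and Lamc3 in 3 of the 7 fits. The number of chains called was 4 without mouse 481, 482, 483 or 476 and 3 without mouse 478.

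Of 12 genes for the hemidesmosome and adhesion receptors, 3 were higher and none lower. That number called is close to the share over all genes tested in either direction, 24.2%. By direction, 12.4% of all genes were higher and 11.7% lower. Itgb1, the integrin chain shared by most collagen and laminin receptors, rose by 1.04 on the log2 scale (SE 0.18, adjusted p = 0.00921) and passed with each mouse left out. Itga6, the laminin-binding partner of Itgb4, rose by 0.60 (adjusted p = 0.0316) and Dag1, which encodes dystroglycan, by 0.59 (adjusted p = 0.0351), and each passed in 2 of the 7 fits with a mouse left out. Without mouse 481, 482 or 483, 1 of the 12 was called, and with DESeq2's Wald test 5 were.

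The machinery that modifies and exports collagen chains had 10 of 19 genes higher and 1 lower. P3h3, a prolyl 3-hydroxylase family member, rose by 1.27 on the log2 scale (adjusted p = 0.00686 from edgeR) and Serpinh1, the collagen chaperone HSP47, by 1.06 (adjusted p = 0.0139), both with each mouse left out as well. Crtap rose by 0.74, P3h1 by 0.89 and P4ha3, at only 0.337 to 1.13 CPM in controls, by 2.12, in 6, 3 and 4 of the 7 fits. P3h2, whose enzyme acts on type IV collagen, fell by 0.69 on the log2 scale (adjusted p = 0.0229 from edgeR) and passed in 3 of them. Mia3, which encodes the export receptor TANGO1 for collagen VII, stood at 0.35 on the log2 scale (adjusted p = 0.0827) and is named after its value was seen. The count of 11 genes was 6 with trends on length and GC content removed, 6 without mouse 481, 4 without mouse 483 or 476, and 3 without mouse 482 or 478.

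Enzymes that process, shed or break down these collagens had 12 of 15 tested genes higher and none lower, with Elane and Plg too sparse to test. Bmp1 and Tll1, proteases that mature procollagens, rose by 1.08 and 3.25 on the log2 scale (adjusted p = 0.00887 and 0.00761 from edgeR). Tll1 was sparse, at 0.205 to 0.667 CPM in controls and 1.79 to 5.72 CPM in treated mice. Adam9 and Adam10, which can shed the collagen XVII ectodomain, rose by 1.84 and 0.72 (adjusted p = 0.0111 and 0.0158), and Plau, the urokinase, by 0.81 (adjusted p = 0.0171). These 5 passed with each mouse left out. Mmp2, a gelatinase that cuts type IV collagen, rose by 1.17 (adjusted p = 0.0185) and lost the call without mouse 482 or 478. The other gelatinase, Mmp9, named after its values were seen, was at 7.90 to 12.9 CPM after DMSO and at 316, 39.3 and 35.7 CPM in mice 476, 477 and 478, 3.63 higher on the log2 scale (edgeR adjusted p = 0.0194), and lost the call without mouse 482 or 483. Its log2 fold change was 1.84 without mouse 476 and at most 4.11 with another mouse left out. Its highest value was in mouse 476, where macrophage markers also summed to their highest value of 2410 CPM, and their part in it was not tested. The number of enzymes called was 5 without mouse 482, 6 without mouse 483 and 7 without mouse 476.

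**Figure D5:**
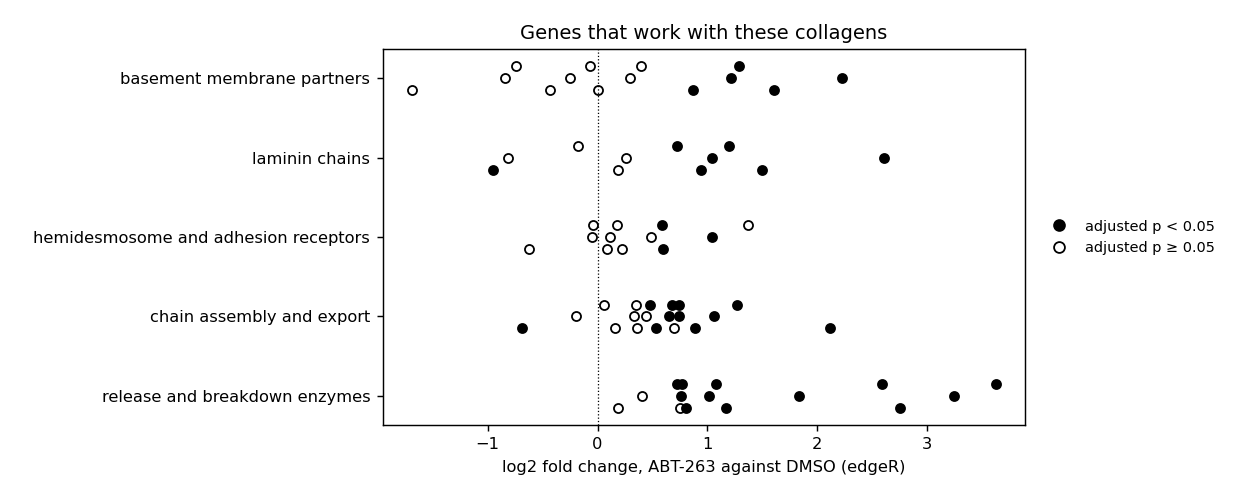
Log2 fold changes from edgeR of the genes of 5 lists that work with these collagens, each point a gene, spread vertically to avoid overlap, filled where the adjusted p was under 0.05. Points reach from -1.69 (Fras1) to 3.63 (Mmp9), and filled points below 0 are Lamc3 and P3h2.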

How the data were processed

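The labels give 4 DMSO- and 3 ABT-263-treated mice. Per the study's methods, the authors aligned reads to mm10 with STAR 2.7.9a and counted uniquely aligned proper pairs on the same strand per Ensembl gene with featureCounts (Subread 1.6.2), without mitochondrial genes. The deposited counts are raw. The authors' second deposited table holds log2 values after DESeq2's variance-stabilizing transformation, used as an alternative for ratios. Symbols, positions and exon lengths came from GENCODE M21, which held 55190 of 55450 identifiers. The authors used Ensembl build 109. Krt85 was not matched. Analyses used R 4.3.3, edgeR 4.0.16 (TMM, filterByExpr, robust quasi-likelihood), DESeq2 1.42.0 and mgcv 1.9.3. Ratios were log2 of counts plus 0.5. Tested on simulated data with 200 changed genes among 17959, edgeR recovered 98.0% to 100% of them, with 1.96% to 5.24% of calls false. In the simulations only well-counted genes changed, by a fixed size in either direction, and every gene had the same dispersion. Far fewer genes changed there than were called in the data. These shares check the code and do not give the recovery or the false calls in the data. Members, lists, ratios and alternatives were chosen with earlier results of these data known. Genes named are all members, up to 6 called genes with the smallest p in each list, ratio partners, called markers, those nearest in pattern to 5 members, and those said to be named after their values were seen, except some that are not reported here. Alternatives were DESeq2's Wald test and size factors, filters on low counts, removal of length and GC trends, thinning to the smallest library, and leaving out each mouse. The labels name no batch. The number in each sample's title was read as that of a mouse. Where samples did not come from separate mice, p-values would measure only the spread between samples, which may be technical.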

Additional observations from a re-analysis of the deposited data

Results flagged for a closer look

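In the DMSO group, 32 measures were searched for 1 mouse apart from its group, by the gap to its neighbour over the group's range (Dixon's ratio), and 3 exceeded the 5% level, where chance gives about 1.6. Mouse 480 stood apart for the summed basal keratinocyte markers (ratio 0.910), at 31243 CPM against 18289 to 19451 CPM in the others. Mouse 481 stood apart for the hair follicle markers (0.994), at 2584 CPM, and among the DMSO mice it also had the highest levels of Col4a3, Col4a5, Col4a6, Col7a1 and Col17a1 and the lowest of Col4a1, Col4a2, Col15a1 and Col18a1. Mouse 483 stood apart for the adipocyte markers (0.856), at 2435 CPM. None of the 10 collagen genes and none of the 7 ratios exceeded the level.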

How the results depend on the processing

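Over the 10 collagen genes and 13 alternatives, 129 log2 fold changes were compared with the reported ones. Of these, 118 kept direction and side of the threshold, 4 lost the call (all of Col15a1, without mouse 481, 482, 483 or 478), 1 gained it (Col7a1 without ABT-263 mouse 477, when 1 gene was lower) and 6 turned sign, none of them called. The sign turned for Col4a5 without mouse 481 (0.14), 476 (0.29) or 477 (0.04), within a range of -0.75 to 0.29, and for Col17a1 without mouse 480 (-0.03), 482 (-0.00236) or 477 (-0.13), within a range of -0.13 to 0.24. Genes lower were 0 to 1 with a mouse left out. Counts called with a mouse left out were 3 to 5 of the network partners, 3 to 6 laminin chains, 1 to 3 receptors, 3 to 11 assembly genes and 5 to 14 enzymes. The Wald test called 5 receptors, and removal of length and GC trends left 6 assembly genes. The Col4a4 to Col4a3 ratio turned to 0.08 on variance-stabilized values, and the Col4a1 to Cdh5 ratio to 0.72 with the sum of 10 endothelial markers in place of Cdh5, an alternative chosen after seeing the data. Over all genes, 2234 were higher and 2108 lower, against 1404 and 1433 without mouse 481, 850 and 974 without 482, 988 and 1075 without 483, 1116 and 1112 without 476, and 964 and 771 without 478. The causes were not tested. Col4a3 was left out by the filter of at least 10 counts in every sample. No paired analysis was possible because the groups share no replicate number. With 6 mice an exact permutation test cannot reach 0.05, so ratios with a mouse left out carry no test. Depth limits Col4a3, with as few as 4 counts.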

Other observations

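The genes nearest in pattern to 5 of the collagens were sought by the root mean square difference of log2 CPM, each gene centred on its mean over the 7 libraries, among 15581 genes with a mean of at least 1 CPM. This is a description with no test, since few libraries and a shared treatment difference make close patterns common. Nearest to Col4a1 were the pseudogene Gm6829 (0.15), Susd1 (0.18) and Eng (0.20), which encodes endoglin, a co-receptor of endothelium, and nearest to Col17a1 were Ajuba (0.06), 9930014A18Rik (0.08) and Grhl2 (0.08), an epithelial transcription factor. Nearest to Col7a1 were Cirbp (0.11), Zfp296 (0.13) and Hoxb5 (0.13). For Col15a1 they were Cercam (0.07), Gabarapl1 (0.10) and Gm44349 (0.10), and for Col18a1 Ube2n-ps1 (0.12), Atp11b (0.15) and Styk1 (0.16). Of these 15 genes, reads of Gm6829 and Ube2n-ps1 may be shared with near-identical parent genes, so their counts are uncertain.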
